A study of Mus musculus with 24 samples.

Results

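The mitochondrially encoded transcripts were followed in single mouse embryos that had either been left intact or been split at the late 2-cell stage. They were taken as every row of the count table whose gene symbol starts with mt-, which gave 13 genes of 37229. All 13 encode proteins. The reference annotation of the mouse mitochondrial genome (GENCODE release M21, built on GRCm38) also holds 2 ribosomal RNAs and 22 transfer RNAs, which were not analysed here.

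All groups shared the ICR strain, conception by in vitro fertilization and culture at reduced oxygen, and the labels give no genotype or drug that differs between groups. Intact controls comprised 4 embryos at the 8-cell stage, 5 morulae and 3 blastocysts. For the split groups, the blastomeres of a 2-cell embryo were mechanically parted after a pretreatment in biopsy medium, and every blastomere developed by itself in modified sodium hyaluronate gel. This gave 6 split morulae (group 2M) and 6 split blastocysts (group 2B), each made up of 3 sister pairs. The counts of both sisters of a pair were summed to 1 unit, so that 24 embryos became 18 units. The labels name the gel for split embryos and say that intact ones were cultured under matched conditions, so the separation, the growth from 1 blastomere and the handling cannot be told apart. The labels give no further origin of the replicates, and the spread on which p-values rest may therefore in part be technical.

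Mitochondrial DNA carries the genes of 13 proteins, all of them subunits of the respiratory chain or of ATP synthase, which are built together with many subunits encoded in the nucleus. The genes of both strands are copied as long RNAs that start in the control region, and these are cut apart mostly at the transfer RNAs that lie between the genes. The resulting mRNAs mostly receive short poly(A) tails, and their levels also depend on stability, which the Lrpprc and Slirp proteins are known to affect. In the mouse, the mitochondria of a cleaving embryo come from the oocyte, and their DNA is known to be replicated little before the blastocyst stage.

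Smart-seq2 primes cDNA on poly(A) with oligo(dT), copies whole transcripts and does not mark strand. Libraries held 26282853 to 38514899 counted reads in 8-cell embryos, 13888842 to 19014808 in intact morulae and 14146833 to 18852776 in split morulae. Intact blastocysts had 11316911 to 12653788 and split blastocysts 13439059 to 25228658. At an equal depth of 10000000 reads, 12303 to 13189 genes were detected in intact morulae and 10016 to 11875 in split morulae. The intact blastocysts had 13935 to 15421 and the split blastocysts 12231 to 13988. The number of detected genes thus differed between split and intact embryos in the same direction as the mitochondrial share given below, and its part in that result was not tested. Of 10 markers of cumulus and granulosa cells, which surround the oocyte, 5 (Foxl2, Amh, Fshr, Lhcgr and Inha) had 0 counts in all 24 embryos. The summed level of the 10 ran from 0 to 2.1 CPM in 8-cell embryos, 0.0595 to 12.9 in intact and 0 to 13.2 in split morulae, and 3.83 to 13.1 in intact and 0.382 to 4.94 in split blastocysts. Of 7 markers of blood and immune cells, 2 (Ptprc and Lyz2) had 0 counts in all 24 embryos. Their summed level ran from 10.3 to 33.2 CPM in 8-cell embryos, 3.63 to 16 in intact and 2.12 to 125 in split morulae, and 0.619 to 16.9 in intact and 12.7 to 52.4 in split blastocysts. Of 5 sperm and spermatid markers, Tnp1 had 0 counts in all 24 embryos, and their summed level was at most 3.41 CPM outside the intact blastocysts, which had 4.23 to 6.54. The part of such cells in the differences below was not tested. The summed level of 8 embryo stage markers was 20167 to 27881 CPM in 8-cell embryos, 10990 to 12692 in intact and 9271 to 17158 in split morulae. Intact blastocysts had 6499 to 7243 and split blastocysts 11026 to 12614, without overlap. On this sum the split blastocysts thus lay within the range of intact morulae. The part of developmental stage in the differences between split and intact blastocysts was not tested.

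Several of the 13 genes have near-identical copies in the nuclear genome, and the sequences show which counts this touches. The mouse carries on chromosome 1 an insertion of mitochondrial DNA that is annotated as a row of unprocessed pseudogenes. In the reference transcripts, Gm28661 matched mt-Co2 over 681 bases with 100% identity, Gm10925 matched mt-Atp6 over 678 bases with 100% and Gm28437 matched mt-Co3 over 783 bases with 100%. Gm10222 matched mt-Nd4l over 294 bases with 100%, and Gm28438 matched mt-Nd3 over 345 bases with 1 mismatch. Gm28439 matched the first 876 bases of mt-Nd4 with 100% identity, and Gm29216 matched 483 bases of mt-Co1 with 1 mismatch. Under these symbols Gm28661, Gm10925, Gm28437, Gm28438, Gm28439 and Gm29216 have no row in the count table. Reads given to these copies could therefore not be examined here, and counts under Gm10222 were not analysed. The closest annotated copy of mt-Cytb was Gm11410 on chromosome 4, with 92.9% identity over 1142 bases.

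The stretches below, each of 60 bases of the coding strand from the GENCODE M21 transcripts, show the 3 situations that a read can meet. Capitals mark bases that differ between the mitochondrial gene and its copy, with positions counted from 1 at the 5′ end of the mitochondrial gene. The stretch of mt-Co2 (bases 312 to 371) has no difference from its copy, so a read from it fits both places equally well. The stretch of mt-Nd3 (bases 1 to 60) holds the 1 substitution that separates it from its copy, T3C. The stretch of mt-Cytb (bases 543 to 602) holds 4 of the 81 substitutions that separate it from its copy, T564C, C567T, G570A and C591T.
mt-Co2: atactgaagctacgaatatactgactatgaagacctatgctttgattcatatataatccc
Gm28661: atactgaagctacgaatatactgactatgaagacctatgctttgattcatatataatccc
mt-Nd3: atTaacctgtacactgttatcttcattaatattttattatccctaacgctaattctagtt
Gm28438: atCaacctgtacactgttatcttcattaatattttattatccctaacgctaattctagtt
mt-Cytb: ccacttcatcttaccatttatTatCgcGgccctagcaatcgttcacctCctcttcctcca
Gm11410: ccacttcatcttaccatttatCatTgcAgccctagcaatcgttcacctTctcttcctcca

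Cut into windows of 100 bases, 97.6% to 99.9% of the windows of mt-Nd3, mt-Nd4l, mt-Co2, mt-Atp6 and mt-Co3 were found unchanged in an annotated nuclear transcript. The share was 60.8% for mt-Nd4, 30.8% for mt-Co1 and 3.19% for mt-Nd2. It was 0% for mt-Nd1, mt-Nd5, mt-Nd6, mt-Cytb and mt-Atp8. The short gene mt-Atp8 lies between mt-Co2 and mt-Atp6 and overlaps mt-Atp6 by 43 bases. The annotated copies of its neighbours leave 233 bases between them on chromosome 1, which were not analysed here, so its 0% covers annotated transcripts only.

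The deposited TPM values, which are scaled by gene length and so allow genes to be compared, differed widely between the genes. In the 8-cell embryos the median TPM was 28740 for mt-Cytb, 23456 for mt-Nd1, 14873 for mt-Nd2, 6586 for mt-Nd4, 6196 for mt-Co1, 4980 for mt-Nd6 and 3215 for mt-Nd5. The median TPM was 711 for mt-Atp6, 302 for mt-Co2, 275 for mt-Atp8, 138 for mt-Nd3, 89.4 for mt-Co3 and 51.5 for mt-Nd4l. The 5 genes with nearly complete nuclear copies, and mt-Atp8 beside them, thus had the lowest levels of the 13, and in each of the 5 groups their medians also lay below those of the other 7 genes. How reads with several matches were counted was not given in the sources used here, and its part in these levels was not tested. The levels and changes of these 6 genes are therefore given as uncertain. They made up 0.854% of the mitochondrial counts in 8-cell embryos and 0.188% to 0.485% in the other groups, so the summed measures below consist mostly of the other 7. Among those, mt-Nd4, mt-Co1 and mt-Nd2 also have windows that occur unchanged in nuclear transcripts (60.8%, 30.8% and 3.19%). The part of reads with several matches in the summed measures, and in the levels of these genes, was not tested.

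**Figure D1:**
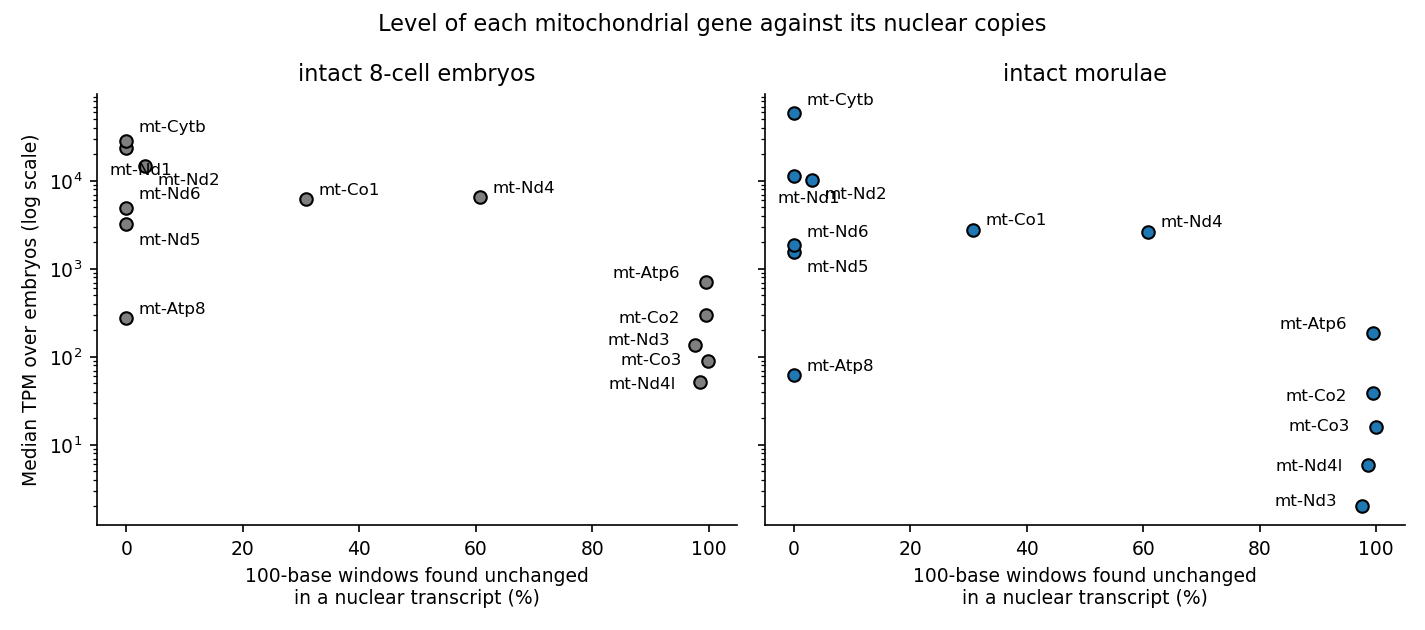
Median TPM over embryos (log axis) of each mitochondrial gene in intact 8-cell embryos and intact morulae, against the share of its 100-base windows that occur unchanged in an annotated nuclear transcript. The 5 genes at 97.6% to 99.9% and mt-Atp8 lie lowest in both stages.

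Another limit concerns mt-Nd6, the only one of the 13 that is encoded on the opposite strand. Its annotation overlaps mt-Nd5 by 14 bases, and in human cells its mRNA is known to lack a poly(A) tail. Without strand information, its reads and those of RNA copied from the other strand over the same bases cannot be told apart, so the row is given below as reads over mt-Nd6.

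The first question was how much of each embryo's counted reads came from the 13 mitochondrial genes. The share of counted reads in the 13 genes was 3.93%, 4.54%, 5.61% and 3.38% in the 8-cell embryos. In intact morulae it was 3.91%, 4.27%, 3.99%, 5.06% and 2.7%, and in intact blastocysts 4.28%, 4.85% and 3.47%. The 3 intact groups overlapped throughout. Their means were 4.37% ± 0.958 (SD, n = 4), 3.99% ± 0.852 (n = 5) and 4.2% ± 0.691 (n = 3). Neither the difference of morula minus 8-cell, −0.379 percentage points, nor that of blastocyst minus morula, 0.211, passed an exact two-sided permutation test over units (p = 0.54 and p = 0.75).

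Split embryos lay lower. In split morulae the share was 3.19% and 2.57% in the sisters of pair 1, 2.84% and 2.23% in those of pair 2, and 2.91% and 1.81% in those of pair 3. In split blastocysts it was 1.99% and 2.16% in pair 1, 2.34% and 0.841% in pair 2, and 1.28% and 1.55% in pair 3. Every split blastocyst was below every intact blastocyst, whereas split morulae overlapped the intact morula of 2.7%.

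Over units the share was 2.61% ± 0.275 (n = 3 pairs) in split morulae and 1.67% ± 0.354 (n = 3 pairs) in split blastocysts. The difference of split minus intact was −1.38 percentage points at the morula stage (exact two-sided permutation p = 0.0714, smallest possible 0.0357). At the blastocyst stage it was −2.52 percentage points (exact p = 0.1, the smallest that 3 against 3 units allow). Split blastocysts were 0.937 percentage points below split morulae (difference of −0.937, exact p = 0.1, again the smallest possible). Adjusted over the 5 comparisons, the last 3 values were each 0.167, so none passed the threshold of 0.05. A share falls both with fewer mitochondrial transcripts and with more nuclear ones, and these cannot be told apart here.

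**Figure D2:**
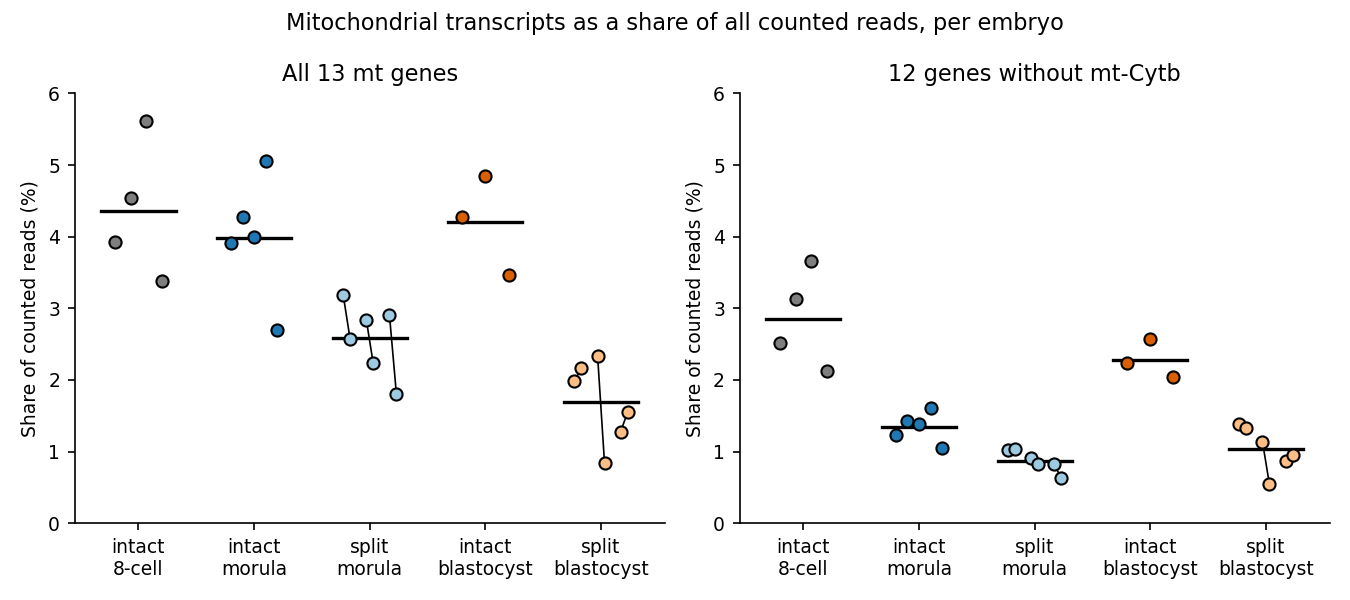
Share of counted reads (%) in the 13 mitochondrial genes (left) and in the 12 without mt-Cytb (right), 1 point per embryo, sisters of a split pair joined by a line, group means over embryos as bars. On the left the intact groups overlap and the 6 split blastocysts lie below the 3 intact ones. On the right the intact morulae lie below the 8-cell embryos and the intact blastocysts.

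What the mitochondrial counts were made of differed between the stages. The gene mt-Cytb encodes cytochrome b, the mitochondrially encoded subunit of complex III. It held 35.9%, 31%, 34.9% and 37.3% of the mitochondrial counts in the 8-cell embryos. In the intact morulae it held 68.5%, 66.7%, 65.2%, 68.1% and 61%, and in the intact blastocysts 47.8%, 46.9% and 41.3%. The 3 groups did not overlap, with the morula highest.

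In split embryos too the morula stage lay above the blastocyst stage, and there was no split 8-cell group. Over the 3 pairs, mt-Cytb held 66.6% ± 2.45 of the mitochondrial counts in split morulae and 39.1% ± 6.22 in split blastocysts. The intact groups had 65.9% ± 3.03 (n = 5) and 45.4% ± 3.56 (n = 3) at these stages, and 34.8% ± 2.68 (n = 4) at the 8-cell stage. Morula minus 8-cell was 31.1 percentage points (exact two-sided permutation p = 0.0159, the smallest possible, adjusted 0.0794 over 5 comparisons). Blastocyst minus morula was −20.5 (exact p = 0.0357, the smallest possible, adjusted 0.0893), and split blastocyst minus split morula was −27.5 (exact p = 0.1, the smallest possible). Split minus intact was 0.739 at the morula stage (exact p = 0.786) and −6.22 at the blastocyst stage (exact p = 0.2), in both cases with overlapping groups. These measures of composition were chosen after the data were seen, so their p-values describe the pattern and do not test it independently.

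The gene mt-Nd1, a subunit of complex I that lies first in the gene order, ran the other way. It held 21.8% ± 2.57 of mitochondrial counts in 8-cell embryos, 11.6% ± 2.12 in intact morulae and 20.3% ± 1.68 in intact blastocysts. Split morulae had 9.79% ± 1.42 and split blastocysts 25.7% ± 4.15. The ratio of mt-Cytb to mt-Nd1 counts was accordingly 1.62 ± 0.302 in 8-cell embryos, 5.87 ± 1.26 in intact morulae and 2.25 ± 0.347 in intact blastocysts. It was 6.93 ± 1.33 in split morulae and 1.58 ± 0.548 in split blastocysts.

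**Figure D3:**
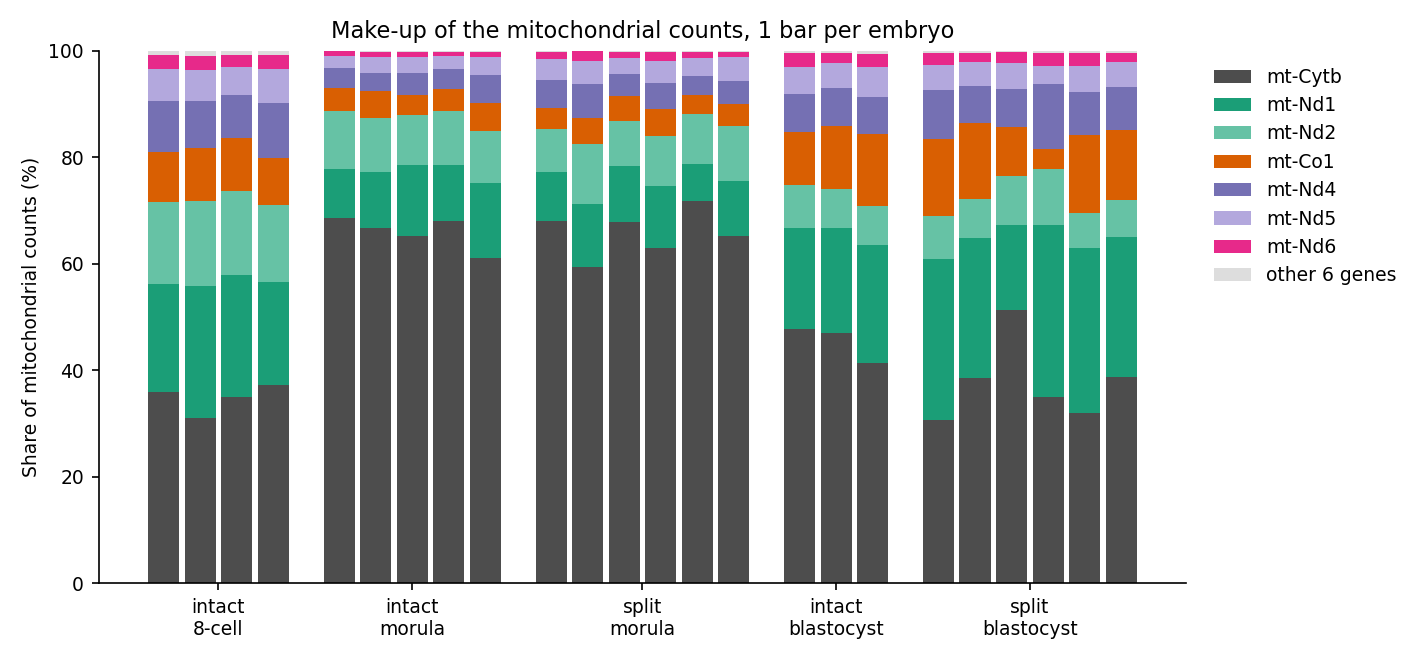
Make-up of the mitochondrial counts (%) in each of the 24 embryos, 1 bar per embryo, with 7 genes in colour and the 6 genes of lowest level together in light grey. mt-Cytb takes 59.4% to 71.8% of every morula bar, intact or split, and 30.7% to 51.4% of every other bar.

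Without mt-Cytb, the remaining 12 genes held 2.86% ± 0.676 of counted reads in 8-cell embryos, 1.34% ± 0.212 in intact morulae and 2.28% ± 0.27 in intact blastocysts. Split morulae had 0.876% ± 0.151 and split blastocysts 1.03% ± 0.288. On this measure, added after the data were seen, intact morulae were below 8-cell embryos by a difference of −1.51 percentage points (exact two-sided permutation p = 0.0159). Intact blastocysts were above intact morulae by 0.937 (exact p = 0.0357), and split minus intact morulae was −0.467 (exact p = 0.0357). Adjusted over the 5 comparisons these 3 values were each 0.0595, so none passed the threshold. Split minus intact blastocysts was −1.25 (exact p = 0.1, the smallest possible). The split blastocysts, below split morulae on all 13 genes, were 0.15 percentage points above them on the 12 (exact p = 0.6).

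**Figure D4:**
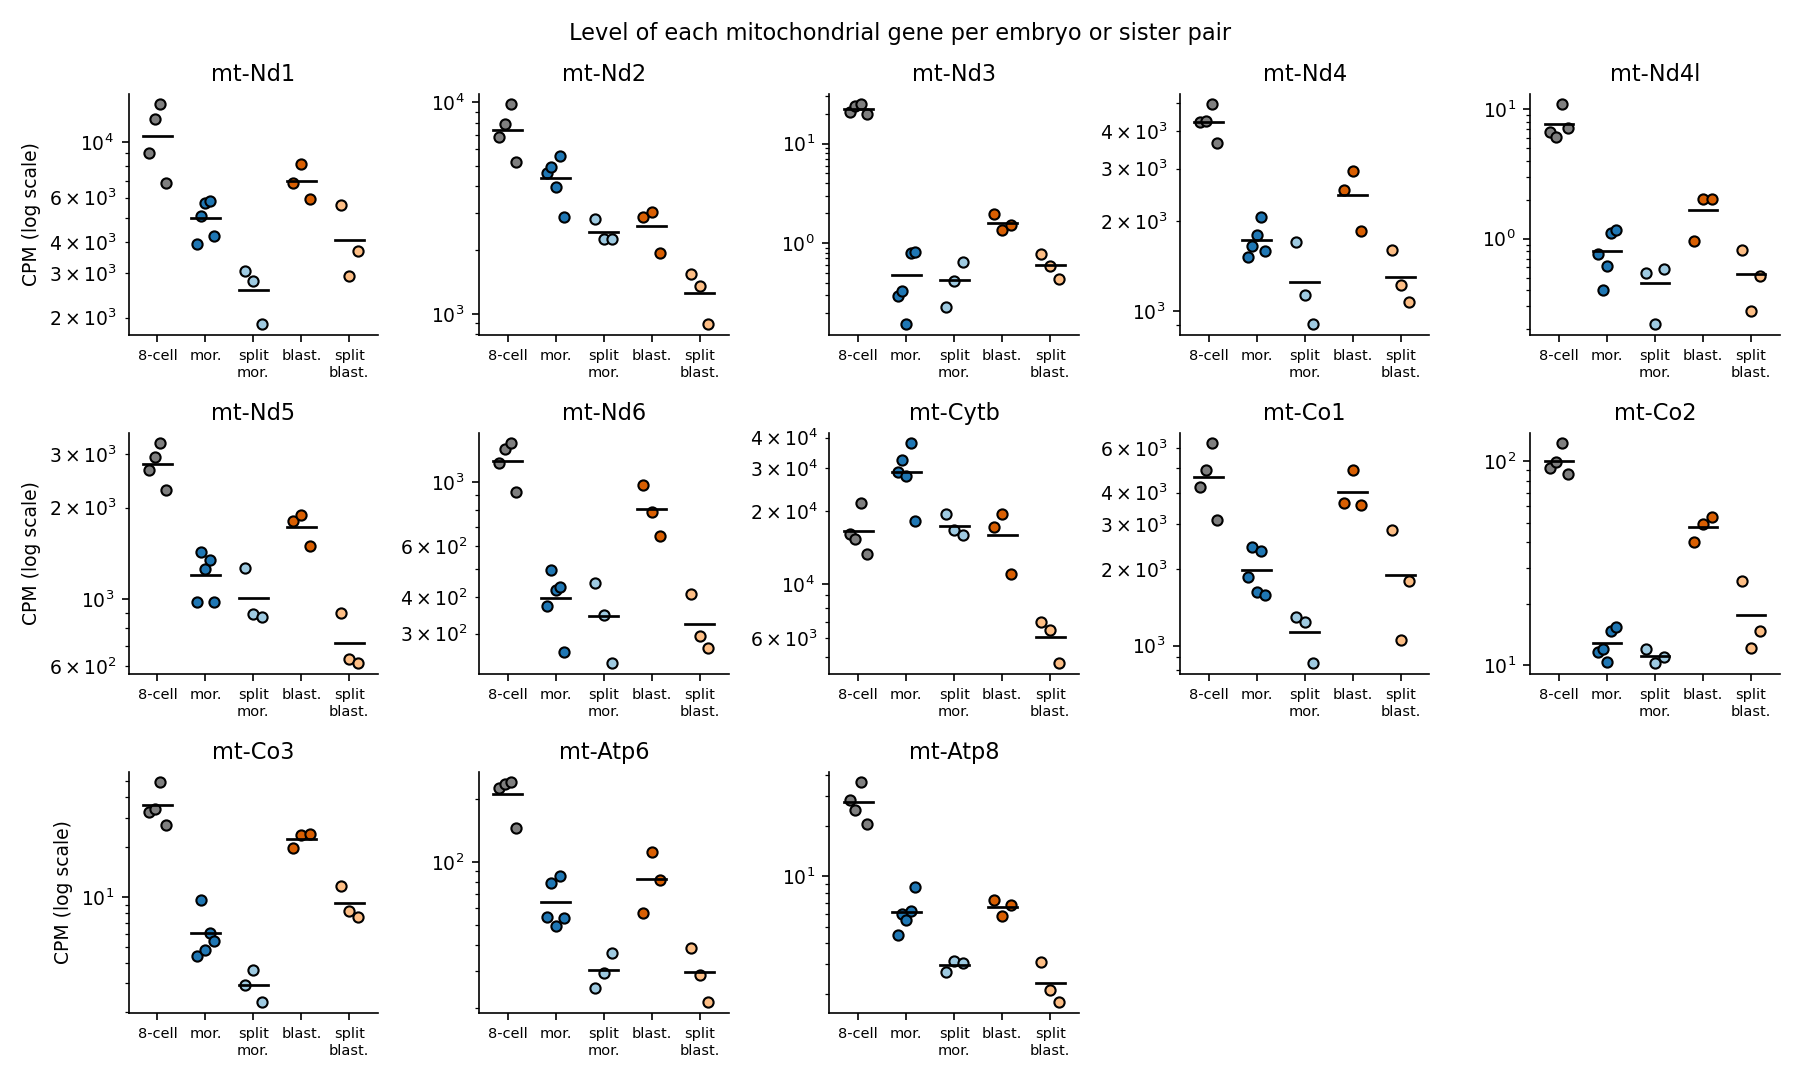
Level of each of the 13 genes as CPM (log axes that differ between panels), 1 point per unit (an intact embryo or a summed sister pair), with group means as bars. mt-Cytb is the gene whose mean is highest in intact morulae, and in each panel the mean of split blastocysts lies below that of intact blastocysts.

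Gene by gene, levels were compared as normalised read counts scaled to library size (CPM), with edgeR's quasi-likelihood test fitted on all 15875 genes that passed a filter on low counts. All 13 mitochondrial genes passed that filter. The p-values were adjusted by Benjamini-Hochberg over all tested genes, and genes under 0.05 were called.

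From the 8-cell stage to the intact morula, 12 mitochondrial genes fell and mt-Cytb rose. All 13 were called, where 24.9% of all tested genes were called (14.3% higher and 10.7% lower). The median log2 fold change of the 13 was −1.57, against 0.09 over all tested genes. For 11 of them every morula lay below every 8-cell embryo, as it did for 10.6% of all tested genes.

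The complex I genes of high level fell. For mt-Nd1 the 8-cell embryos had 9053, 12295, 14074 and 6852 CPM and the intact morulae 3923, 5084, 5730, 5843 and 4215, without overlap. Its log2 fold change was −1.09 ± 0.21 (SE, adjusted p = 0.00054). For mt-Nd4 the 8-cell embryos had 4316, 4329, 4929 and 3651 CPM and the morulae 1521, 1649, 1797, 2072 and 1589, with a log2 fold change of −1.32 ± 0.18 (adjusted p = 9.32e-06). Every morula lay below every 8-cell embryo for both genes. For mt-Nd5 the log2 fold change was −1.22 ± 0.16 and for the reads over mt-Nd6 −1.57 ± 0.21, both without overlap. For mt-Nd2, the change was −0.76 ± 0.20 (adjusted p = 0.00782) and the groups overlapped, since the lowest 8-cell embryo had 5210 CPM and the highest morula 5563.

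The complex III gene mt-Cytb parted from all the others, among them mt-Co1 of complex IV. For mt-Cytb the 8-cell embryos had 16030, 15298, 21477 and 13273 CPM and the morulae 28926, 32267, 27777, 37862 and 18102. The fifth morula lay below the third 8-cell embryo, and the other 4 morulae lay above all 8-cell embryos. The log2 fold change was 0.81 ± 0.19 (adjusted p = 0.00388). For mt-Co1, the largest subunit of cytochrome c oxidase (complex IV), the 8-cell embryos had 4206, 4906, 6242 and 3124 CPM and the morulae 1855, 2451, 1623, 2359 and 1583, with a log2 fold change of −1.23 ± 0.24 (adjusted p = 0.000685).

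The 6 genes of low level showed larger differences, with the limit given above. Over embryos, mt-Nd3 had 581 to 702 counts per library in 8-cell embryos and 2 to 14 in intact morulae, and its fitted log2 fold change was −5.52 ± 0.90. The log2 fold changes were −3.24 ± 1.10 for mt-Nd4l, −2.96 ± 0.29 for mt-Co2, −2.56 ± 0.44 for mt-Co3, −2.16 ± 0.54 for mt-Atp8 and −1.72 ± 0.26 for mt-Atp6. The values of these 6 genes ran from −5.52 to −1.72, and those of the other 6 genes that fell from −1.57 to −0.76. The 6 genes comprise those with nearly complete nuclear copies and mt-Atp8, of which 0% of windows occur in a nuclear transcript. They are also the genes of lowest level. On the other side, mt-Nd4 and mt-Co1 have 60.8% and 30.8% of their windows in nuclear transcripts. The part of the copies, or of the low level, in these changes was not tested. The call of mt-Nd4l was lost in 9 of 19 alternative analyses, 6 of them the omission of 1 embryo (8-cell embryo 3 or 4, or morula 1, 2, 3 or 4), with adjusted p up to 0.136. The call of mt-Cytb was lost with each split embryo as its own sample (adjusted p = 0.102).

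From the intact morula to the intact blastocyst, mt-Co1, mt-Co2, mt-Co3 and the reads over mt-Nd6 rose while mt-Cytb and mt-Nd2 fell. Of these, mt-Co2 and mt-Co3 are among the genes whose changes were given above as uncertain. In all, 4 of the 13 were called higher and 2 lower, where 3.12% and 7.46% of all tested genes were (10.6% in either direction). The median of the 13 was 0.53, against 0.11 over all tested genes. Scaled by library totals only, which moved the median of all tested genes to 0.53, 7 of the 13 were called higher and none lower. Of all 15875 tested genes, 1212 were then called higher and 677 lower.

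For mt-Co1 the blastocysts had 3625, 4900 and 3589 CPM, all above the highest morula at 2451. The log2 fold change was 1.03 ± 0.26 (adjusted p = 0.0102). It was 1.88 ± 0.30 for mt-Co2, which carries the copper site that takes electrons from cytochrome c, 1.89 ± 0.46 for mt-Co3 and 1.02 ± 0.22 for the reads over mt-Nd6 (adjusted p = 0.000151, 0.00797 and 0.00301). In all these 4 genes, every blastocyst lay above every morula, as in 13.2% of all tested genes. This held for 7 of the 13, since mt-Nd1 (0.49), mt-Nd3 (1.74) and mt-Nd5 (0.53) also did not overlap but missed the threshold (adjusted p = 0.179, 0.202 and 0.0574).

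The 2 genes that fell overlapped between the stages. For mt-Cytb the blastocysts had 17242, 19400 and 10961 CPM, with 1 of them above the fifth morula, and the log2 fold change was −0.87 ± 0.21 (adjusted p = 0.00949). For mt-Nd2, the blastocysts had 2857, 3029 and 1930 CPM and the log2 fold change was −0.75 ± 0.22 (adjusted p = 0.0335). The call of mt-Nd2 was lost in 11 of 18 alternatives, among them the omission of blastocyst 1 or 3 or of morula 1, 2 or 4 (adjusted p up to 0.346 over all alternatives). That of mt-Cytb was lost in 5 of 18, with adjusted p of 0.0853 without blastocyst 3, and that of mt-Co1 with adjusted p of 0.0807 without blastocyst 2. The ATP synthase genes did not pass the test, with 0.37 ± 0.28 for mt-Atp6 and 0.10 ± 0.58 for mt-Atp8.

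The split morulae were then compared with the intact morulae, to ask whether mitochondrial transcripts differed once embryos had grown from 1 blastomere. No mitochondrial gene was called by edgeR, in a comparison with 0.126% of all tested genes called (0.0693% higher and 0.0567% lower). All 13 fitted values were below 0, with a median of −0.81 against 0.00 over all tested genes, and 7 had an unadjusted p under 0.05. DESeq2 called 4 of the 13 lower, in a test that called 266 genes higher and 410 lower of 15875. With each split embryo as its own sample, edgeR called 3 of the 13, with 73 genes higher and 118 lower of 15673.

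The values themselves were lower in split morulae for several genes. For mt-Nd1 the 3 pairs had 3073, 2787 and 1892 CPM, all below the lowest intact morula at 3923, and the log2 difference was −0.94 with a 95% interval from −1.43 to −0.45 (adjusted p = 0.112). For mt-Nd2 the pairs had 2788, 2265 and 2244 CPM against a lowest intact value of 2865, with −0.85 from −1.32 to −0.38 (adjusted p = 0.114). In 6 genes (mt-Nd1, mt-Nd2, mt-Co1, mt-Co3, mt-Atp6 and mt-Atp8) every pair lay below every intact morula, where 3.71% of all tested genes did and 3.54% lay the other way. For mt-Cytb the pairs had 19438, 16754 and 15984 CPM, which straddled the fifth intact morula, and the log2 difference was −0.74 from −1.18 to −0.29 (adjusted p = 0.15). Nearest to 0 among the genes of high level were mt-Nd5 with −0.24 from −0.62 to 0.13 and the reads over mt-Nd6 with −0.21 from −0.68 to 0.26.

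At the blastocyst stage, 8 of the 13 genes were lower in split than in intact embryos and none was higher. Of all tested genes, 1.32% were called lower and 3.42% higher (4.74% in all). The median log2 fold change of the 13 was −1.31, against 0.00 over all tested genes. In all 13, the 3 split pairs lay below the 3 intact blastocysts, as in 13.7% of all tested genes.

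The genes called lower belonged to all 4 complexes with mitochondrially encoded subunits, but not with equal weight. For ATP synthase only mt-Atp6 was called, and for complex IV mt-Co1 and mt-Co2. Both mt-Atp6 and mt-Co2 are among the genes given above as uncertain. The call of mt-Co1 was lost in 8 of 16 alternatives, that of mt-Co2 in 5 and that of mt-Atp6 in 2. For mt-Nd5, a complex I subunit, the intact blastocysts had 1803, 1888 and 1490 CPM and the split pairs 901, 632 and 615. Every split pair lay below every intact blastocyst, and the log2 fold change was −1.27 ± 0.20 (adjusted p = 0.000535). For mt-Cytb of complex III the intact blastocysts had 17242, 19400 and 10961 CPM and the split pairs 6989, 6483 and 4741 (−1.39 ± 0.24, adjusted p = 0.00105).

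The other members showed the same order. For mt-Co1 of complex IV, the intact values were 3625, 4900 and 3589 CPM and the split values 2861, 1047 and 1794 (−1.09 ± 0.29, adjusted p = 0.0363). For mt-Atp6, a subunit of the proton channel of ATP synthase, the intact values were 56.5, 111 and 81.5 CPM and the split values 38.7, 28.6 and 21.3 (−1.49 ± 0.32, adjusted p = 0.00669). The reads over mt-Nd6 (−1.31 ± 0.25), mt-Nd4 (−0.92 ± 0.22), mt-Nd2 (−1.05 ± 0.25) and mt-Co2 (−1.43 ± 0.35) were also called.

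The 5 that missed the threshold were mt-Nd1 (−0.78 ± 0.26, adjusted p = 0.0967), mt-Co3 (−1.29 ± 0.53), mt-Atp8 (−1.49 ± 0.66), mt-Nd3 (−1.42 ± 0.97) and mt-Nd4l (−1.63 ± 1.31). The number of calls rested on single units. It was 3 without split pair 3 or without intact blastocyst 2, 5 without split pair 2 or without intact blastocyst 1, and 9 without split pair 1. These fits called 80 to 137 of all genes lower, with 17043 to 17255 tested. The calls of mt-Nd5, mt-Cytb and the reads over mt-Nd6 were kept in all 16 alternatives. The second sister of split pair 2 stood apart from the other split blastocysts, with a share of 0.841% and with mt-Co1 at 3.78% of its mitochondrial counts against 9.13% to 14.6% in the other 5. Without this embryo 7 genes were called, where 208 of all 15608 tested genes were called lower, and the difference in share was −2.25 percentage points.

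**Figure D5:**
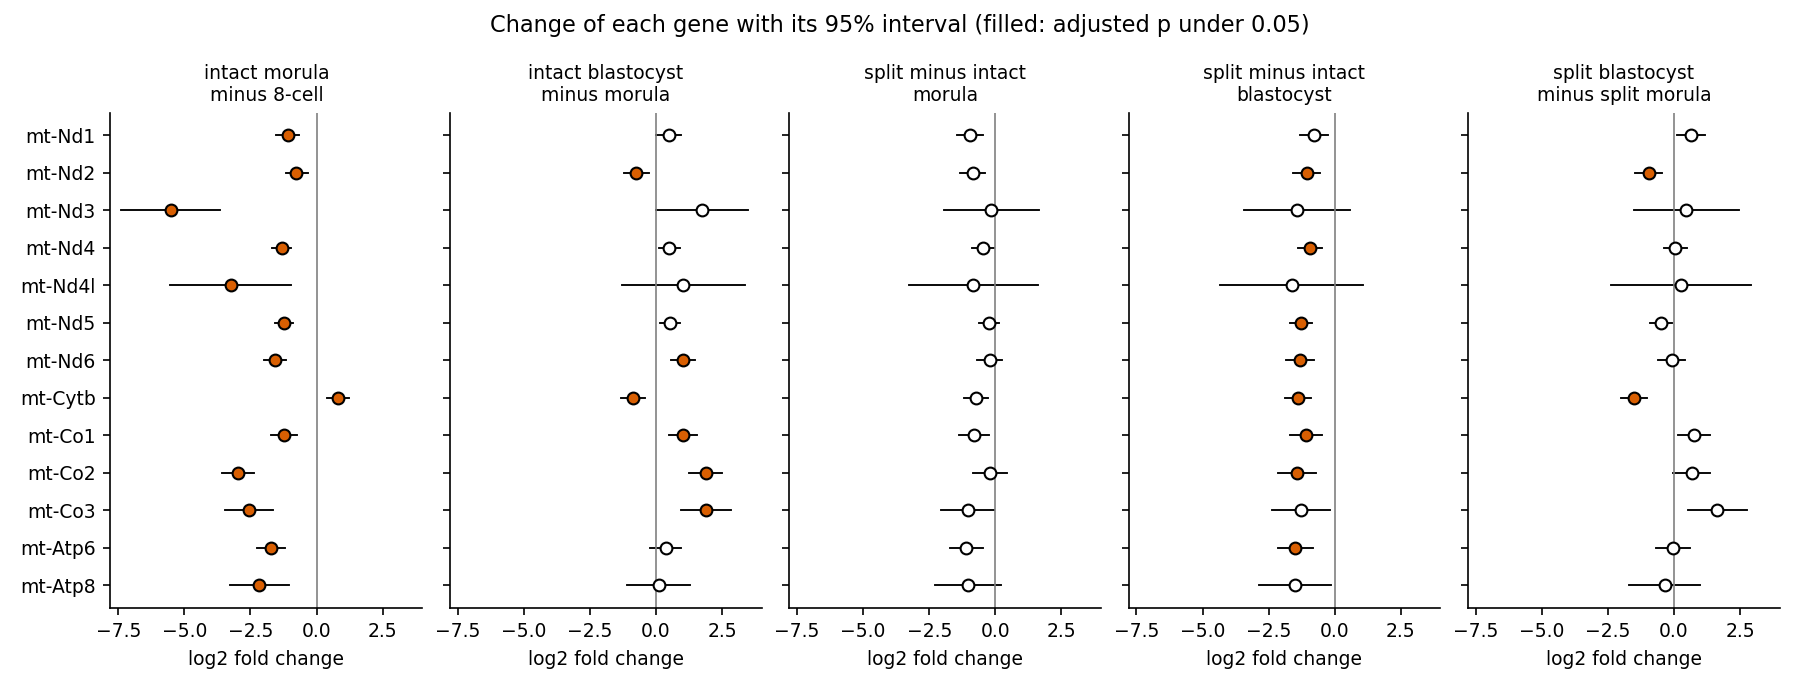
Log2 fold change of each gene in 5 comparisons with its 95% interval, filled points at an edgeR adjusted p under 0.05. The 12 falls and the rise of mt-Cytb from 8-cell to morula, the 8 lower genes in split blastocysts and the absence of calls in split morulae can be read off.

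Among split embryos, mt-Cytb and mt-Nd2 were lower at the blastocyst than at the morula stage. These were 2 of the 13, where 2.95% of all tested genes were called lower and 1.22% higher (4.17% in all). For mt-Cytb the split morula pairs had 19438, 16754 and 15984 CPM and the split blastocyst pairs 6989, 6483 and 4741, with a log2 fold change of −1.52 ± 0.24 (adjusted p = 0.000587). For mt-Nd2 the values were 2788, 2265 and 2244 against 1534, 1349 and 897 (−0.95 ± 0.25, adjusted p = 0.0282). Its call was lost in 8 of 16 alternatives, with adjusted p of 0.183 without split blastocyst pair 3, 0.0628 without pair 2 and 0.154 without the second sister of pair 2. It was 0.0933 without split morula pair 1 and 0.0633 without pair 3. The call of mt-Cytb was kept in all 16. The mean of mt-Nd1 was 2584 CPM in split morulae and 4072 in split blastocysts, and it missed the threshold (0.66 ± 0.26, adjusted p = 0.166). Without overlap between the pairs were 2 genes that were lower (mt-Cytb and mt-Nd2, 10.8% of all tested genes) and 2 that were higher (mt-Co2 and mt-Co3, 16.6%).

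The effect of splitting at the blastocyst stage was also set against that at the morula stage in a single test of the difference. No mitochondrial gene passed, where 1.64% of all tested genes did, and 4 had an unadjusted p under 0.05. The smallest p of these was that of mt-Nd5, with a log2 difference of −1.03 ± 0.27 (adjusted p = 0.0539), next to −1.10 ± 0.33 for the reads over mt-Nd6 and −1.22 ± 0.45 for mt-Co2 (adjusted p = 0.109 and 0.204). The median of the 13 was −0.46. Between 1 and 3 genes were called in 8 of 24 alternatives, among them 1 without split blastocyst pair 1 or intact morula 2 and 2 without split morula pair 3. Of all genes, these 3 fits called 14 below 0 of 17109 tested, 38 of 15849 and 27 of 17115.

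Nuclear genes that serve the mitochondrial genome were read from lists, to place the 13 beside them. Of 32 nuclear subunits of complexes I, III, IV and V, 7 were higher and none lower in split blastocysts than in intact ones (3.42% and 1.32% of all tested genes), with a median log2 fold change of 0.54. For Uqcrc1, a core protein of complex III, the mean was 1318 ± 113 CPM in split and 284 ± 66.5 in intact blastocysts (2.21 ± 0.24, adjusted p = 1.47e-05). The changes were 1.69 ± 0.34 for Ndufv1, a complex I subunit of the NADH site, 1.53 ± 0.21 for Uqcrc2, another core protein of complex III, and 1.51 ± 0.21 for Cyc1, which encodes cytochrome c1. These 4 calls were kept in all 16 alternatives, in which 6 to 14 of the 32 were higher and 0 to 4 lower. The mitochondrial genes that passed the test were thus lower in the same units in which these nuclear subunits were higher. In split morulae edgeR called none of the 32 in either direction. DESeq2 called 2 higher, in a test that called 266 higher and 410 lower of 15875 tested genes.

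From the 8-cell stage to the intact morula, 16 of the 32 nuclear subunits rose and 4 fell (14.3% and 10.7% of all tested genes), with a median of 0.56 against 0.09 over all tested genes. Among those that rose were Uqcrc1 (2.22 ± 0.20), Ndufv1 (1.85 ± 0.29) and Atp5g2, a ring subunit of ATP synthase (1.52 ± 0.26). The 4 that fell, named after their values were seen, were Atp5g3 and Atp5k of ATP synthase and Cox7c and Cox6a1 of complex IV. From the intact morula to the intact blastocyst 2 were called higher and 5 lower (3.12% and 7.46% of all tested genes), a balance that turned to 11 higher and 1 lower when libraries were scaled by their totals only. That scaling called 1212 higher and 677 lower of all 15875 tested genes. Between split morulae and split blastocysts 7 were higher and none lower (1.22% and 2.95% of all tested genes), but only 1 was called without split blastocyst pair 1 or pair 3, 3 without split morula pair 2 and 2 without pair 3. Of all genes, these fits called 71 higher of 17109 tested, 72 of 17043, 148 of 17199 and 112 of 17115. Of the 7, Cyc1 (1.26 ± 0.21) kept its call in all 16 alternatives. The difference between the effects of splitting at the 2 stages was called for 5 of the 32, all above 0 (1.37% of all tested genes above and 0.265% below), with Uqcrc2 at 1.57 ± 0.29. That number was 3 without split blastocyst pair 1 or 3 and without intact blastocyst 1 or 2, and it ran from 1 with limma to 9 with DESeq2. Of all genes, the fits without 1 of those units called 97 to 150 above 0 of 17043 to 17255 tested. Limma called 46 of 15625 and DESeq2 584 of 15875.

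Of 19 factors that copy and maintain mitochondrial DNA, 4 rose and 2 fell from the 8-cell stage to the morula (14.3% and 10.7% of all tested genes), a balance that turned to 0 higher and 2 lower with each split embryo as its own sample. Their median was 0.23. Polg, the mitochondrial DNA polymerase, was at 1.32 ± 0.611 CPM in 8-cell embryos and 7.2 ± 2.75 in morulae (2.44 ± 0.68, adjusted p = 0.012), a call that was lost in 3 of 19 alternatives, where the fold change went down to 0.96. Tfb2m, which opens the promoter for the mitochondrial polymerase, fell from 94.7 ± 32.6 to 38.5 ± 8.81 CPM (−1.30 ± 0.37, adjusted p = 0.014). Mterf3, which is known in the mouse as a brake on mitochondrial transcription, changed by −1.30 ± 0.24 and Mgme1, a nuclease of mitochondrial DNA, by 1.15 ± 0.31. The other 2 that rose, named after their values were seen, were Tfam, which packages mitochondrial DNA (1.03 ± 0.37), and the protease gene Lonp1 (0.93 ± 0.32). From the intact morula to the blastocyst, 4 of the 19 fell and none rose (7.46% and 3.12% of all tested genes), with Mgme1 at −1.91 ± 0.36, Tfb2m at −1.76 ± 0.44, Tefm, an elongation factor of the polymerase, at −1.63 ± 0.25 and Mterf3 at −1.50 ± 0.28. edgeR called none of the 19 between split and intact embryos at either stage. DESeq2 called 4 higher in split blastocysts, in a test that called 880 higher and 527 lower of 15875 tested genes.

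Of 22 genes for processing, tailing and decay of mitochondrial RNA, 7 rose and 3 fell from the 8-cell stage to the morula (14.3% and 10.7% of all tested genes), with a median of 0.46. The 3 that fell were Fastkd1 and, named after their values were seen, Grsf1 and Elac2. Slirp, which binds mitochondrial mRNAs together with Lrpprc, was at 0.617 ± 0.249 CPM in 8-cell embryos and 17.5 ± 6.59 in morulae (4.81 ± 0.63, adjusted p = 8.02e-06). Ptcd2, known in the mouse to be needed for normal processing of the mt-Cytb transcript, rose by 1.86 ± 0.36. From morula to blastocyst 5 fell and none rose (7.46% and 3.12% of all tested genes), among them Trnt1 (−2.20 ± 0.24), which adds CCA ends to transfer RNAs, and Ptcd2 (−1.40 ± 0.39), whose call was lost in 6 of 18 alternatives. In split blastocysts Ptcd2 was at 80.1 ± 11.4 against 28.9 ± 12.1 CPM in intact ones (1.47 ± 0.43, adjusted p = 0.0496), a call that was lost in 9 of 16 alternatives. None of the 22 was called in split morulae, by edgeR or in any alternative.

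Mrm3, an enzyme that methylates the large mitochondrial ribosomal RNA, was the 1 gene of the 18 for rRNA modification and ribosome assembly that edgeR called in split against intact embryos, at both stages. Of all tested genes, 0.126% were called in either direction in split morulae and 4.74% in split blastocysts. Its mean was 162 ± 8.36 CPM in split and 59.3 ± 12.1 in intact morulae (1.45 ± 0.24, adjusted p = 0.0156). It was 46.8 ± 11.1 in split and 17.3 ± 2.78 in intact blastocysts (1.44 ± 0.28, adjusted p = 0.00303), a call lost in 2 of 16 alternatives, with adjusted p of 0.138 without the second sister of split pair 2. The fold change at the morula stage ran from 1.37 to 1.61 over 18 alternatives, and the call was lost in 6 of them, among them without split pair 2 or 3 and without intact morula 2 or 3 (adjusted p up to 0.103 over all). Of 17 mitochondrial aminoacyl-tRNA synthetases, edgeR called 1 in split against intact blastocysts, where 4.74% of all tested genes were called. This was Lars2, which charges leucine tRNA, at 261 ± 35.1 CPM in split and 101 ± 37.9 in intact blastocysts (1.36 ± 0.37, adjusted p = 0.0334). Its call was lost in 9 of 16 alternatives.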

How the data were processed

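The authors deposited raw read counts for 37229 gene symbols and TPM values for 15625 genes in 24 libraries. Per the submitters' processing notes they used FastQC, MultiQC, cutadapt, HISAT2, featureCounts and edgeR with GRCm39. Versions, strand setting and the counting of reads with several matches were not given in the sources used here.

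Counts of sister embryos were summed, giving 18 units in 5 groups. Genes were kept by filterByExpr (15875), scaled by TMM (trimmed mean of M values) and entered into edgeR 4.0.16 as 1 robust quasi-likelihood fit with 13 residual degrees of freedom (R 4.3.3). All tests are two-sided, and p-values were Benjamini-Hochberg adjusted over all tested genes. CPM values carry the scaling factors. Shares were compared by exact permutation over units. The script was tested on simulated counts. No molecular identifiers were used, so precision covers counting and the spread of units only. Alternatives used DESeq2 1.42.0 and limma 3.58.1 on log2(TPM + 1).

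Copies were searched with blastn 2.17.0 in GENCODE M21 transcripts (GRCm38, so no coordinates are given). All 13 mitochondrial genes were named, and of each related list at most the 4 called genes with the largest change per comparison, beside a few that the text marks as named after their values were seen. The members and lists were chosen with earlier results of these data known.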

Additional observations from a re-analysis of the deposited data

Results flagged for a closer look

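Far embryos were sought in 56 sets of values, each 1 group for the total mitochondrial share or for a gene's share of mitochondrial counts. In 5 sets an embryo lay far from the others of its group, at a nominal rate of 1 in 20. Sisters were counted as single embryos and the shares of a total depend on each other, so that rate is only a rough guide. The intact blastocysts were too few for this check. The lowest mt-Nd1 share among split blastocysts was 15.8%, in the first sister of pair 2, with the next at 26.2%. The fifth intact morula had the highest mt-Co2 share of its group, 0.0519% with the next at 0.0274%, and the highest mt-Atp8 share, 0.0291% with the next at 0.013%. The second sister of split morula pair 3 had the highest mt-Atp6 share, 0.219% with the next at 0.126%. The third 8-cell embryo had the lowest share of reads over mt-Nd6, 2.21% with the next at 2.58%.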

How the results depend on the processing

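Calls depended on these settings, and the cause was not tested. With each split embryo as its own sample, 3 mitochondrial genes were called between intact blastocyst and morula, 3 between split and intact morulae and 4 between split blastocysts and split morulae. Of 15673 tested genes, that fit called 343 higher and 839 lower, 73 and 118, and 1117 and 1088, in the same order. The limma fit on log2(TPM + 1) called 10 in blastocyst against morula and all 13 in split against intact blastocysts. Of 15625 tested genes, limma called 2769 higher and 850 lower in the first comparison and 380 and 564 in the second. DESeq2 called 4 in split morulae (266 higher and 410 lower of 15875 tested genes). It gave no adjusted p for mt-Atp8, mt-Nd3 and mt-Nd4l in split blastocysts. For split blastocysts against split morulae, 1 was called with DESeq2 size factors, with no filter on low counts and with only the compared groups fitted. Of all genes, these called 423 lower of 15875 tested, 453 of 23854 and 215 of 12834. For the difference of the split effects, 2 were called with library totals only and with no filter, 1 with only the compared groups, and 3 with DESeq2 and with limma. Of all genes, library totals called 123 below 0 of 15875 tested, and no filter 60 of 23854. The compared groups called 77 of 14566, DESeq2 290 of 15875 and limma 69 of 15625.

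Leaving out 1 unit gave 12 to 13 calls for morula against 8-cell, 5 to 6 for blastocyst against morula, 0 for split against intact morulae, 3 to 9 for split against intact blastocysts, 1 to 2 among split embryos and 0 to 2 for the difference of effects. Over all genes (15594 to 17255 tested), the first had 1885 to 2134 called higher and 1380 to 1560 lower. The second had 242 to 429 and 835 to 1107, and the third 1 to 30 and 3 to 21. Split against intact blastocysts had 315 to 415 and 80 to 157. Among split embryos there were 71 to 179 and 220 to 453, and for the difference 97 to 181 and 11 to 51. Differences in mitochondrial share ran from −0.708 to 0.0367 percentage points (morula minus 8-cell, above 0 without 8-cell embryo 3), −0.113 to 0.574 (blastocyst minus morula, below 0 without blastocyst 2 or, at −0.112, morula 5), −1.7 to −1.11 (split minus intact morula), −2.89 to −2.2 (split minus intact blastocyst) and −1.14 to −0.787 (split blastocyst minus split morula). The mt-Cytb share of mitochondrial counts ran from 29.9 to 32.3, −21.8 to −18.5, −0.635 to 1.71 (below 0 without split morula pair 3 or, at −0.481, morula 5), −9.79 to −4.14 and −31.1 to −25.4 in the same order. That of mt-Nd1 ran from −11.1 to −9.2, 7.8 to 9.41, −2.37 to −1, 4.13 to 7.74 and 14.7 to 18.3.

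With each split embryo as its own sample, so sisters counted as independent, the share differences had an unadjusted p under 0.05 for split minus intact morulae (−1.4), split minus intact blastocysts (−2.5) and split blastocysts minus split morulae (−0.896), as did −28.2 for mt-Cytb and 16.9 for mt-Nd1 among split embryos. Without mt-Cytb, chosen after the data were seen, they did so at −1.51, 0.937 and −0.467, and split blastocysts minus split morulae turned to 0.15.

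Fitted values near 0 changed sign. For split minus intact morulae, mt-Nd3 was 0.45 with a replicate block, 0.07 with limma and −0.57 to 0.17 with 1 unit left out. Among split embryos, mt-Atp6 was 0.02 with DESeq2 size factors and with DESeq2, 0.06 with library totals, 0.00 with separate sisters, 0.12 without the second sister of pair 2 and −0.27 to 0.16 with 1 unit left out. Reads over mt-Nd6 were at 0.02 with library totals, 0.09 without that sister and −0.29 to 0.15 with 1 unit left out, where mt-Nd4 ran from −0.13 to 0.35 and mt-Nd4l from −0.19 to 0.56. In the difference of effects, mt-Nd1 was −0.15 with library totals, −0.29 with limma and −0.13 to 0.36 with 1 unit left out, mt-Nd2 was 0.03 without that sister, and mt-Co1 ran from −0.70 to 0.01 with 1 unit left out.

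Among lists, DNA maintenance genes from 8-cell to morula turned to 0 higher and 2 lower with separate sisters (2 calls) and 1 and 2 with the compared groups only (3 calls). Of all genes, these settings called 1758 higher and 1321 lower of 15673 tested, and 1591 and 1568 of 11548. From morula to blastocyst, limma gave 4 higher and 3 lower for RNA processing (7 calls), 5 and 2 for synthetases (7) and 16 and 1 for nuclear subunits (17). DESeq2 gave 3 and 2 for synthetases (5), and library totals gave 11 and 1 for nuclear subunits (12). Of all genes, limma called 2769 higher and 850 lower of 15625 tested. DESeq2 called 1012 and 1560 of 15875, and library totals 1212 and 677 of 15875. In split blastocysts limma called 0 and 1 for RNA processing.

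Replicate numbers did not pair the units. Over 31 same-numbered pairs, deviations correlated between −0.03 and 0.08. With a replicate block, 12, 4, 0, 7, 2 and 0 mitochondrial genes were called in the 6 comparisons. Of 15875 tested genes, that fit called 1929 higher and 1330 lower, 303 and 1020, and 10 and 10 in the first 3. It called 501 and 178, 182 and 417, and 143 and 26 in the others. The median of all genes was 0.11 in the main analysis, 0.53 with library totals and 0.37 with limma, which also changes the input and the genes tested, for blastocyst minus morula, where 29.5% of calls were higher in the main analysis against 64.2% and 76.5%. For split minus intact blastocysts it was 0.00 against −0.14 under both, with 72.2% of calls higher against 49.2% and 40.3%.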
